A study of Drosophila melanogaster with 140 samples.

Results

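The odorant-binding protein genes of Drosophila melanogaster were followed across heads, dissected brains, sorted brain cells and tagged ribosomes of a study on the RNA modification m6A in ageing and amyloid toxicity. Members were the 51 of 17562 genes in the deposited count table whose symbol starts with Obp. The gene lush belongs to the same family but is not named that way, so it was not counted as a member. By chromosome the 51 genes lay mostly on the second chromosome, with 2 on arm 2L and 29 on arm 2R, and the others were 2 on 3L, 12 on 3R and 6 on X.

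All flies were males. Head libraries came from DaGal4>Mcherry RNAi flies (called control here) and DaGal4>Ime4 RNAi flies, in which the ubiquitous daughterless driver knocks down Ime4, the fly Mettl3 gene that encodes the m6A methyltransferase (called Mettl3 RNAi), at 5 and 34 days of age, with 3 replicates of 200 heads each. A second set of heads and a set of brains, all 6 days old, came from ElavGal4c155>UAS-mcd8GFP flies and from ElavGal4c155>UAS-AB(2x) flies, in which the pan-neuronal elav driver expresses membrane GFP or Aβ42, the amyloid-beta peptide of Alzheimer's disease. These heads numbered 3 and 2 replicates and these brains 3 and 3. Brain cells sorted in lots of 500 were elavGFP+ cells (3 libraries per genotype at 5 days and 4 at 34 days) and repoGFP+ and repoGFP− cells (3 libraries per genotype and age), from control and Mettl3 RNAi flies whose elav or glial repo driver also expressed membrane GFP. From both sets of heads 17 m6A immunoprecipitates were sequenced beside the inputs. For translating ribosome affinity purification (TRAP), control and Mettl3 RNAi flies of 5 and 34 days expressed FLAG-tagged RpL3 from the elav or repo driver. Libraries were made from whole brain lysate (32 inputs) and from pulled-down neuronal (15) or glial (15) ribosomes. Each group of driver, genotype and age had 4 inputs and 3 or 4 pull-downs. Within each experiment the Gal4 driver and any GFP or FLAG transgene were carried by control and knockdown flies alike, and controls expressed an RNAi against mCherry.

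Odorant-binding proteins are small soluble proteins that bind hydrophobic ligands. Many are secreted at high level into the lymph of olfactory and taste sensilla by support cells, where they meet the receptors of the sensory neurons, and others are made in tissues with no olfactory role such as fat body, glia and the male reproductive tract. In the fly antenna Obp83a and Obp83b (once called OS-F and OS-E), Obp28a, Obp19a, Obp69a and Obp84a are characteristic members, and Obp59a is required for humidity sensing. Obp49a acts in the suppression of sweet taste by bitter compounds, Obp57d and Obp57e in the taste of fatty acids, Obp44a is a glial fatty acid binding protein, and Obp99b (also known as turn on sex-specificity) is a male-biased gene of the fat body in the head.

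The libraries held 1.98e+07 to 3.51e+07 reads on genes in heads, 1.75e+07 to 2.27e+07 in brains, 1.06e+07 to 2.20e+07 in sorted cells, 5.70e+06 to 1.79e+07 in TRAP inputs and 2.13e+06 to 9.22e+06 in pulled-down ribosomes. Levels are given as CPM, reads on a gene scaled to a common library total. Heads, brains and sorted cells were made into libraries with different kits, so tissue and kit cannot be told apart among them. For TRAP libraries the sources differ, the series record naming the kit of the sorted cells and the study's methods that of the heads. The targeted gene, Mettl3, was at 5.07 ± 0.23 CPM in control and 3.55 ± 1.22 CPM in Mettl3 RNAi heads at 5 days (SD, n = 3 each, groups not overlapping, adjusted p = 0.468 with edgeR), and at 7.13 ± 0.17 against 2.31 ± 0.25 CPM at 34 days. The first control library of 5-day heads stood apart from its replicates, with a median absolute distance of 0.274 on the log2 scale over genes, against 0.164 and 0.168 for the others. It carried 9203 CPM summed over the members, where replicates 2 and 3 carried 5601 and 5608, and head results that rest on it are given with and without it.

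A member was said to reach a tissue when its mean was at least 1 CPM in at least 1 group there. On that rule 29 members reached heads, 19 brains, 26 TRAP inputs, 10 elavGFP+ cells, 14 repoGFP+ cells, 11 repoGFP− cells, 29 neuronal ribosomes and 25 glial ribosomes. In all, 36 members reached some tissue, and Obp18a, Obp44a, Obp69a, Obp83a, Obp99b and Obp99c reached all 8. The other 15 reached none. They were Obp22a and Obp51a, known as male reproductive tract genes, the 5 genes Obp50a to Obp50e, the 3 genes Obp58b, Obp58c and Obp58d, and Obp47a, Obp56b, Obp56i, Obp57d and Obp73a, of which Obp50b, Obp50c and Obp57d had no read in any of the 140 libraries. Obp50b and Obp50c share all their 1648 exonic bases on the same strand, and all 1488 of Obp57d lie within Cpr57A on the same strand. The study counted in union mode, which assigns no read that overlaps more than 1 gene. The missing reads of these genes therefore do not show that they were not expressed.

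In heads the members at 1 CPM were Obp8a, Obp18a, Obp19a, Obp19b, Obp19c, Obp19d, Obp28a, Obp44a, Obp49a, Obp56a, Obp56c, Obp56d, Obp56e, Obp56f, Obp56g, Obp56h, Obp57a, Obp57b, Obp57c, Obp69a, Obp83a, Obp83b, Obp83cd, Obp83ef, Obp83g, Obp99a, Obp99b, Obp99c and Obp99d. Brains shared 18 of these with heads and added only Obp84a, which passed on 1 library, the second of mcd8GFP brains. In mcd8GFP brains Obp19a (0.335, 7.68 and 0.240 CPM), Obp28a (0.112, 8.84 and 0.144), Obp83a (0.279, 47.8 and 0.769) and Obp83b (0, 37.6 and 0.528) also passed on that library alone. Obp57a (0.390, 0.477 and 2.31) passed on the third. None of these was at 1 CPM in every library of either brain group. The 11 that reached heads and not brains were Obp19b, Obp49a, Obp56a, Obp56c, Obp56e, Obp56f, Obp56g, Obp56h, Obp83g, Obp99a and Obp99d. TRAP inputs are also lysates of dissected brains. They held all 19 of the brain members at 1 CPM and, in addition, Obp49a, Obp56e, Obp56h, Obp59a, Obp83g, Obp93a and Obp99a, and 6 of those 11 were below 1 CPM there too, namely Obp19b, Obp56a, Obp56c, Obp56f, Obp56g and Obp99d. Obp59a passed on 102 reads in 1 input of 34-day repo-driver controls, with 0 in its replicates. Obp56e passed mainly on 95 reads in 1 input of 34-day elav-driver Mettl3 RNAi flies. Requiring 1 CPM in every library of a group left 20 members in TRAP inputs.

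**Figure D1:**
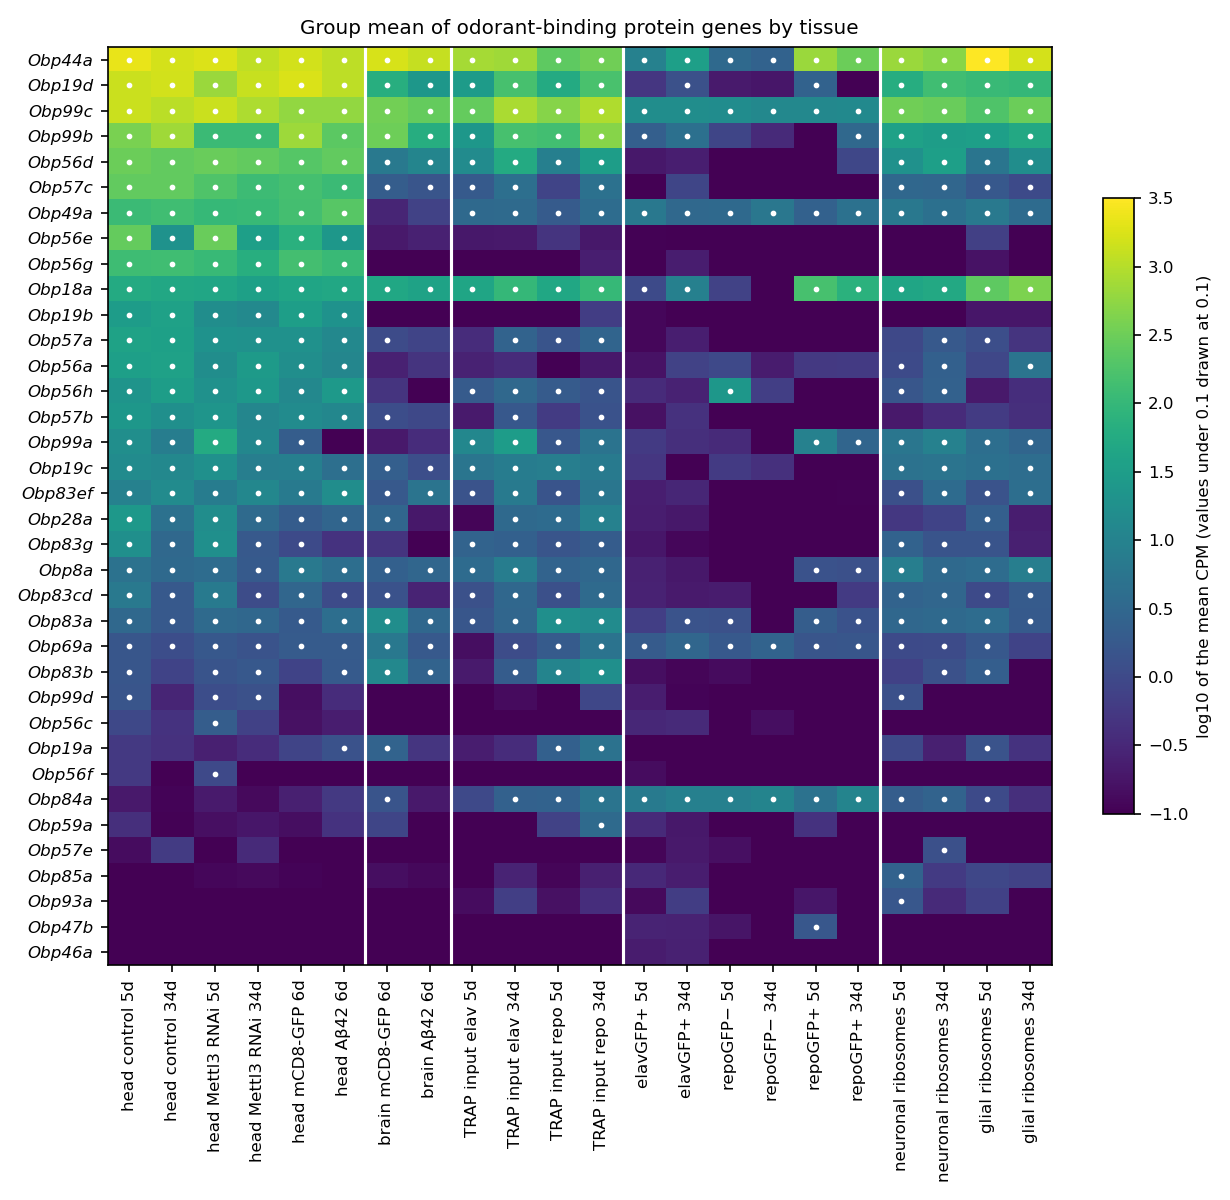
Mean CPM of the 36 members that reached 1 CPM in some tissue, on a log10 colour scale, with 1 column per group and a white dot where the mean is at least 1 CPM. Head columns are filled for 29 members, while Obp44a, Obp99b, Obp99c and Obp18a stay above 1 CPM in nearly every column.

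In sorted cells the sets were smaller. Obp18a, Obp44a, Obp49a, Obp69a, Obp83a, Obp84a, Obp99b and Obp99c reached 1 CPM in elavGFP+, repoGFP+ and repoGFP− cells. Beside these, elavGFP+ cells had Obp19d and Obp46a, repoGFP+ cells had Obp8a, Obp19d, Obp46a, Obp47b, Obp56a and Obp99a, and repoGFP− cells had Obp8a, Obp56a and Obp56h. Pooled over the 3 kinds of sorted cells, 15 members reached 1 CPM, and 3 of them, Obp46a, Obp47b and Obp84a, did not reach it in heads. Obp46a passed on 1 library in each sort, both from 34-day Mettl3 RNAi flies. It had 53 reads against 1, 12 and 8 in elavGFP+ cells and 46 against 0 and 5 in repoGFP+ cells. Obp47b passed on 16, 0 and 52 reads in repoGFP+ cells of 5-day controls. In repoGFP− cells Obp8a passed on 50, 0 and 0 reads in 34-day Mettl3 RNAi flies. The whole of Obp47b (611 exonic bases) overlaps CG7741 and most of Obp84a (663 of its 817 exonic bases) overlaps Dtwd2 on the opposite strand, so reads counted for these members cannot be told apart from their neighbours' reads without strand. The same holds for Obp56e, of which 449 of 532 exonic bases overlap asRNA:CR44509 on the opposite strand, and for Obp93a, with 492 of 591 bases overlapping CG5793. It holds over shorter stretches for Obp44a with Pabp2 (205 bases), Obp59a with CG30259 (224 bases), Obp83cd with Obp83ef (92 bases), Obp69a with CG32104 (53 bases) and Obp99c with Gycalpha99B (23 bases).

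Ribosome pull-downs reached further into the family. The 25 members at 1 CPM in glial ribosomes were those of the TRAP inputs without Obp56e and Obp93a and with Obp56a. The 29 in neuronal ribosomes included all of these but Obp59a, and in addition Obp19b, Obp57e, Obp85a, Obp93a and Obp99d. Requiring 1 CPM in every library of a group left 14 members in neuronal and 13 in glial ribosomes, so the other means included libraries below it.

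Levels between genes were compared per kilobase of merged exons. In control heads at 5 days the highest members were Obp44a at 2096, Obp99c at 2058, Obp19d at 1240, Obp99b at 666, Obp56e at 524 and Obp57c at 475 CPM per kb. In brains of the mcd8GFP flies the order was Obp44a at 1592, Obp99b at 546 and Obp99c at 517 CPM per kb, followed at a distance by Obp18a at 64 and Obp19d at 61. Obp44a and Obp99c, first and second in these heads, differ by less than the spread of Obp44a between its libraries (1855, 2078 and 2834 CPM).

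Genes known from the antenna stood at unlike levels in heads. Obp83a, an antennal member, ranged from 1.31 to 6.01 CPM over the 17 head input libraries with a median of 2.94, Obp83b from 0.428 to 2.88, and Orco, the co-receptor of most odorant receptors, from 1.24 to 3.74. Other antennal genes reached higher levels. Snmp1, a membrane protein of pheromone-sensing neurons, ranged from 11.7 to 18.7 CPM, antdh, an antennal dehydrogenase, from 26.8 to 58.0, lush from 1.26 to 25.1, Obp28a from 1.12 to 29.5 and Obp19d from 527 to 2394. Summed over 7 antennal marker genes the heads held 16.0 to 41.8 CPM and the brains 7.45 to 36.4 CPM, and over the 8 antennal members, of which Obp19d was the highest, 549 to 2431 and 19.3 to 259 CPM. Of the 7 markers 3 reached 1 CPM in heads and 3 in brains, and the receptors Or22a, Or42b, Or47b and Ir8a were below 1 CPM in both. Of 26 genes of the olfactory pathway outside the Obp family, 11 reached 1 CPM in heads and 10 in brains. The labels do not say whether antennae stayed on the heads, which were collected from frozen flies, and heads are therefore described here as labelled, without the addition "with antennae".

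For some antennal genes single brain libraries were above every head library, and for Orco every brain library was. Orco was at 3.96 to 16.5 CPM in brains and at 1.24 to 3.74 CPM in heads. Obp83a was at 0.279, 47.8 and 0.769 CPM in the 3 mcd8GFP brain libraries and at 0.514, 0.0914 and 9.01 CPM in the 3 AB(2x) brain libraries. In the second mcd8GFP library Obp83b (37.6 CPM), Obp69a (13.1), Obp28a (8.84), Obp19a (7.68), Obp84a (4.34), Obp59a (2.59) and Orco (16.5) were each the highest of the 6 brains as well. All of these but Obp28a were above every head library there, while Snmp1, lush, antdh and Obp19d were not above every head library in any brain. Obp83a exceeded 10 CPM in 7 of the 32 TRAP inputs, with 52.4 CPM in 1 input of 34-day control flies with the repo driver. Whether antennal tissue was carried along in those dissections was not tested.

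**Figure D2:**
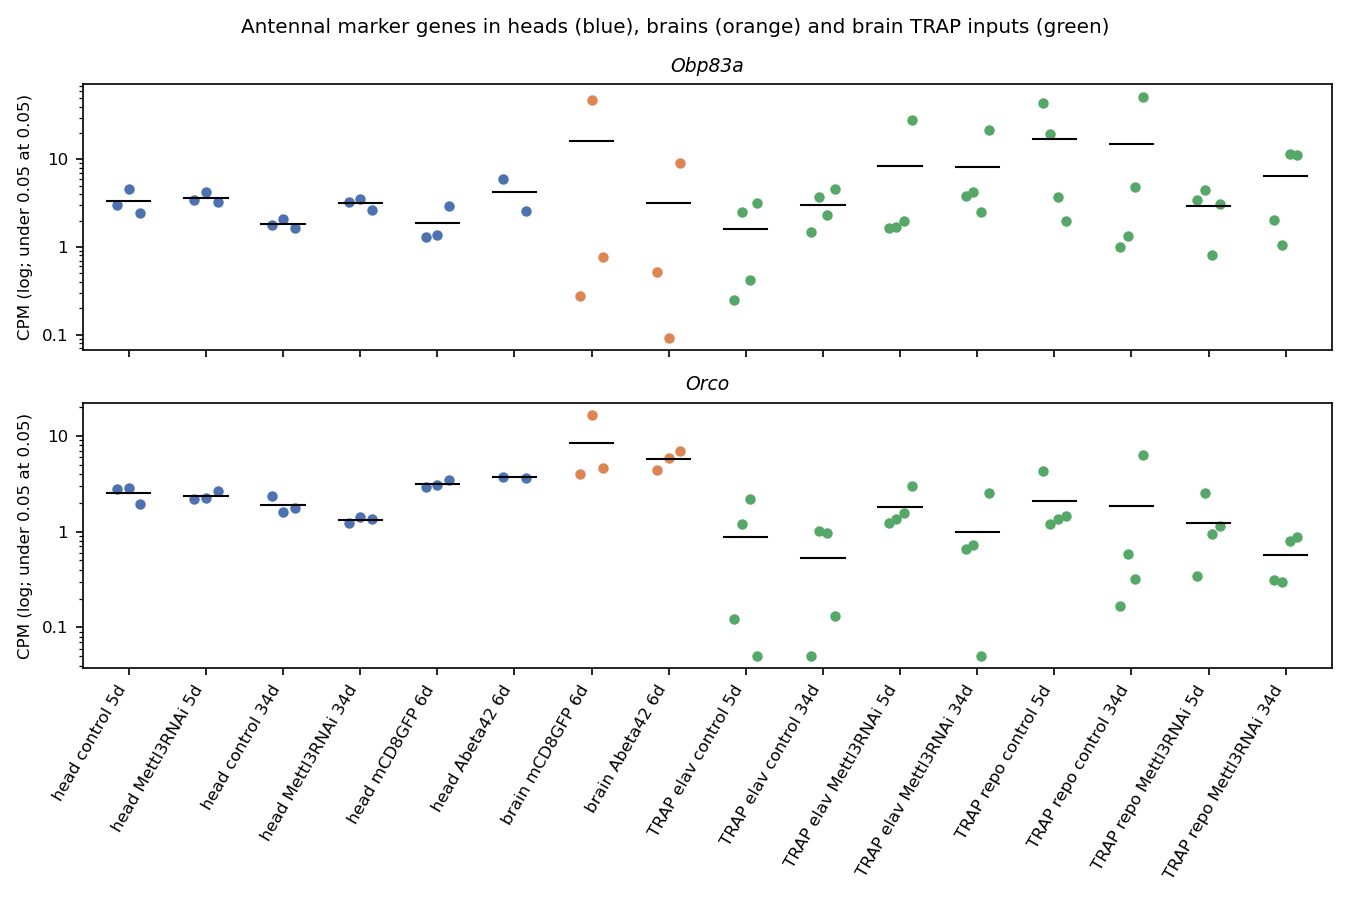
CPM of Obp83a and Orco in each head, brain and TRAP input library on a log scale, with values under 0.05 drawn at 0.05 and a bar at each group mean. All 17 head libraries lie between 1.31 and 6.01 CPM for Obp83a, and single brain and TRAP input libraries reach 47.8 and 52.4 CPM. For Orco every brain library (3.96 to 16.5 CPM) lies above every head library (1.24 to 3.74 CPM).

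Heads and brains of the mcd8GFP flies were compared at the same age of 6 days. Of the 51 members 25 passed the low-count filter, and 18 were higher and 1 was lower in heads at an adjusted p under 0.05 (edgeR quasi-likelihood test), where 75.6% of all genes tested were called in one direction or the other. The share of members called was near that background, but the directions were not those of all genes, of which 38.8% were called higher and 36.8% lower in heads. The median log2 fold change was 1.91 over the members and 0.01 over all genes. Members such as Obp19b, Obp49a, Obp56e and Obp56g, very low in every mcd8GFP brain library, passed the filter through heads alone. Such members could only be called higher in heads, so the split and the median of the members were partly set by the filter. In these bulk samples fewer cells of a type and less RNA per cell cannot be told apart.

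The largest differences were in members of the Obp56 cluster and in Obp19b and Obp49a. Obp56g was at 148, 131 and 146 CPM in heads and at 0.112, 0 and 0 CPM in brains, a ratio of pooled counts of 4073 with a 95% counting interval of 1127 to 33639. Obp19b was at 31.3, 33.4 and 34.0 CPM in heads and had 2 reads in 1 brain library and none in the others, a ratio of 948 (262 to 7829). Both genes were thus close to absent from brains, at 2 reads each over the 3 libraries.

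Obp49a, the taste member, was at 150, 129 and 157 CPM in heads and at 0.167, 0.212 and 0.480 CPM in brains (478-fold, log2 fold change 8.90, SE 0.20, adjusted p = 9.34e-09). Obp56e was at 69.2, 66.3 and 78.4 CPM against 0.0558, 0.371 and 0.192 CPM (329-fold, log2 8.36, SE 0.19, adjusted p = 8.03e-11), with the overlap with asRNA:CR44509 given above. Obp57c was at 153, 144 and 148 CPM against 1.51, 2.75 and 2.21 CPM (67.8-fold, adjusted p = 8.88e-09). For these 3 members the lowest head library was over 10 times the highest brain library, and Obp56a, Obp56d, Obp56h, Obp57a and Obp57b also differed by 12.4-fold to 61.8-fold.

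Obp19d, an abundant secreted member, was at 1699, 1718 and 1889 CPM in heads and at 22.0, 137 and 42 CPM in brains (log2 4.71, SE 0.86, adjusted p = 0.00749). The highest of its brain values came from the library with the highest Obp83a, and without that library the difference was 54.2-fold in place of 26.2-fold. Muscle markers summed to 2302 to 11721 CPM over the head libraries and to 38 to 123 CPM over the brain libraries. Other marker sums overlapped between heads and brains. Photoreceptor markers were at 26851 to 54944 against 21890 to 42062 CPM. Fat body markers were at 6429 to 10373 against 3652 to 8336 CPM, and hemocyte markers at 288 to 794 against 251 to 585 CPM. The brain libraries thus also held RNA of other head tissue, and the part of tissue outside the brain in these differences was not tested.

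Obp44a and Obp18a were about as abundant in brains as in heads. Obp44a was at 1450, 1609 and 1629 CPM in heads and at 1747, 1670 and 1722 CPM in brains, and was the only member called lower in heads (log2 −0.15, SE 0.04, adjusted p = 0.00707), a call that was lost without the first head library. Obp18a, at 46.4, 41.1 and 44.7 CPM in heads and 50.5, 43.7 and 47.5 CPM in brains, was not called (log2 −0.12, SE 0.07, adjusted p = 0.13). Obp99c and Obp99b were 1.71-fold and 2.12-fold higher in heads, without overlap of the tissues, at 606, 605 and 580 CPM against 359, 329 and 350 CPM for Obp99c and at 597, 665 and 826 CPM against 310, 270 and 393 CPM for Obp99b. The differences of these 4 genes were smaller than those of the members described above.

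The calls of antennal members turned on 1 library. Without the second mcd8GFP brain library 21 members were higher and 3 lower in heads, with 72.6% of all genes called. The additions were Obp19a (log2 1.51), Obp28a (log2 3.90) and Obp83a (log2 1.76) on the higher side and Obp18a (log2 −0.17) and Obp69a (log2 −0.58) on the lower, and Obp44a stayed lower (log2 −0.17). With all libraries the fitted values of Obp83a (log2 −3.13, SE 2.07, adjusted p = 0.24) and Obp28a (log2 −0.57, SE 1.61, adjusted p = 0.77) had the opposite sign, so their direction rests on that library. Leaving out 1 library at a time, 16 of the 19 calls held, the exceptions being Obp44a, Obp83cd and Obp83g. Of 12 olfactory pathway genes tested 4 were higher in heads and 2 lower.

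**Figure D3:**
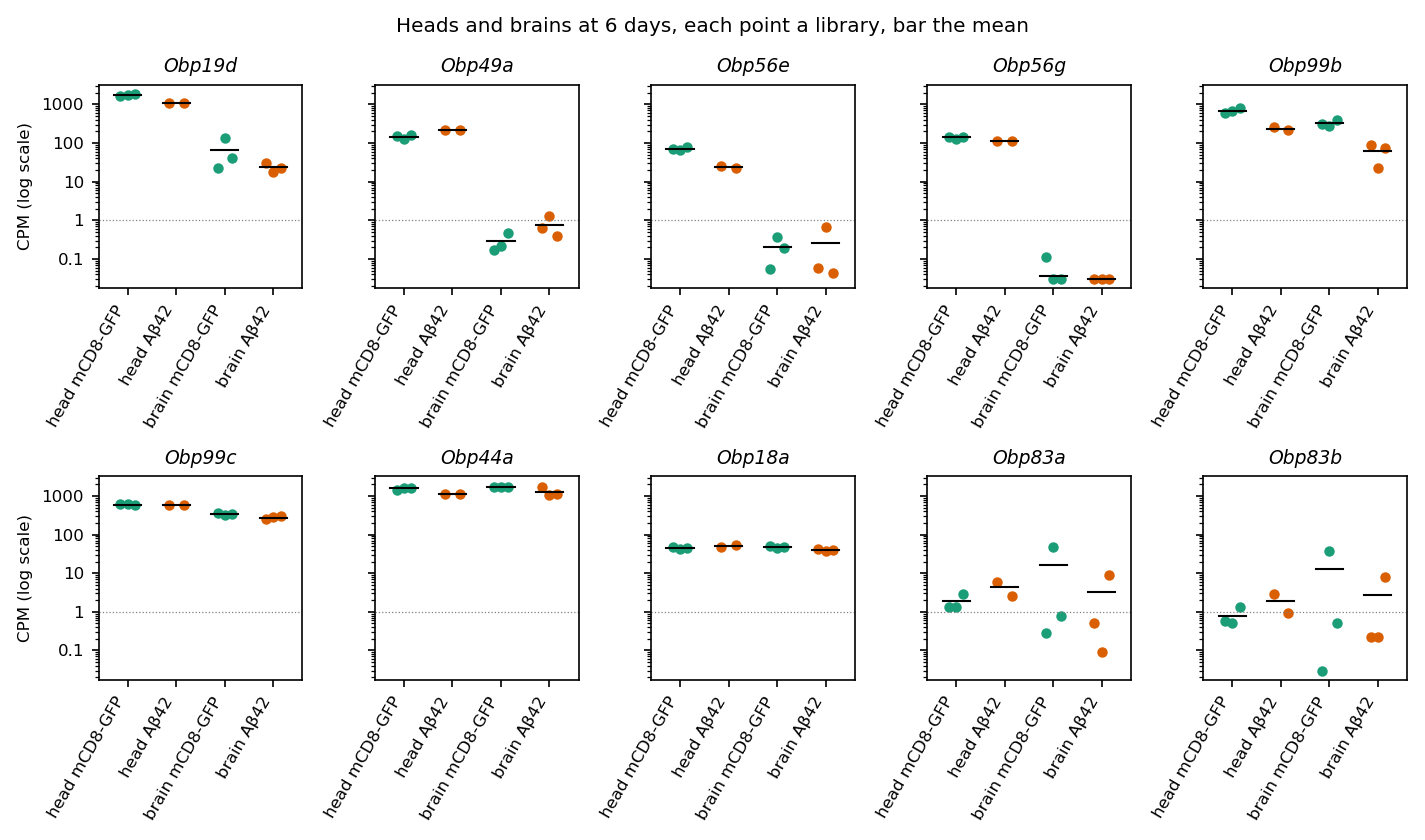
CPM of 10 members in heads and brains at 6 days on a log scale, each point a library, each bar a group mean, with values under 0.03 drawn at 0.03 and a dotted line at 1 CPM. Obp56g, Obp56e, Obp49a and Obp19d fall from heads to brains, Obp44a and Obp18a lie at the same height in both, and Obp83a and Obp83b are high in single brain libraries.

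With age the members of control heads moved mostly downward. Comparing 34 with 5 days, 30 members passed the low-count filter, 13 were lower and 1, Obp83ef, was higher at an adjusted p under 0.05 (edgeR), where 51.5% of all genes tested were called, 23.5% higher and 27.9% lower. The median log2 fold change was −0.45 over the members and −0.05 over all genes. Of 13 olfactory pathway genes tested 3 rose and 3, among them lush, fell.

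Obp56e fell furthest, from 196, 356 and 283 CPM at 5 days to 20.3, 19.7 and 20.0 CPM at 34 days (15.3-fold, log2 −3.93, SE 0.20, adjusted p = 5.13e-05), in counts that cannot be told apart from those of asRNA:CR44509 without strand. Obp28a, which in the antenna binds plant odorants, fell from 29.5, 29.2 and 16.2 CPM to 5.31, 5.43 and 3.81 CPM (5.73-fold, adjusted p = 0.00055). Obp83g fell from 14.3, 22.2 and 15.5 CPM to 3.20, 3.65 and 3.22 CPM (5.69-fold, adjusted p = 0.000136). In each of the 3 the young and old libraries were far apart.

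Its neighbour Obp83cd fell 3.92-fold, from 6.09, 7.56 and 5.81 CPM to 2.03, 2.08 and 1.38 CPM (adjusted p = 0.000409), while Obp83ef, whose exons overlap those of Obp83cd, rose from 8.06, 10.6 and 10.2 CPM to 15.2, 14.6 and 14.6 CPM (1.40-fold, adjusted p = 0.00711). Obp99d fell 5.57-fold from a low level, from 1.05, 2.03 and 1.54 CPM to 0.371, 0.134 and 0.381 CPM (adjusted p = 0.0025), and Obp99a 2.24-fold, from 11.6, 15.9 and 21.8 CPM to 9.17, 6.43 and 8.44 CPM (adjusted p = 0.00463). The glial Obp44a declined modestly, from 2834, 2078 and 1855 CPM to 1674, 1541 and 1653 CPM (1.55-fold, adjusted p = 0.0352). Its old libraries all lay below its young ones, yet its call was lost without any 1 of the 34-day libraries.

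The values of Obp99b and Obp19d turned on the first 5-day library. Obp99b was at 835, 192 and 159 CPM at 5 days and at 721, 756 and 715 CPM at 34 days (log2 0.70, SE 0.63, adjusted p = 0.39), and without the first 5-day library it rose by 1.97 on the log2 scale (adjusted p = 1.3e-06). Obp19d was at 2394, 789 and 914 CPM and then 1548, 1506 and 1582 CPM, with a log2 change of 0.77 without that library and 0.00 with it. In both genes replicates 2 and 3 at 5 days were below every 34-day library.

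Without that library 8 members were higher and 12 lower at 34 days, with 63.7% of all genes called. The 8 were Obp19d, Obp49a (log2 0.44), Obp56g (0.32), Obp56h (1.14), Obp57a (0.42), Obp57e (3.88, at under 1 CPM), Obp83ef (0.43) and Obp99b. Leaving out each library in turn, the calls of Obp28a, Obp56e, Obp57b, Obp83cd, Obp83ef, Obp83g, Obp99a and Obp99d held, and those of Obp44a, Obp56d, Obp69a, Obp83a, Obp8a and Obp99c were each lost at least once, with 8 to 12 members lower. Of the 4 fat body markers, FASN1 and apolpp were called higher and Lsp2 and Fbp1 lower over the same ages, and all 4 muscle markers were called lower. Their part in the members' changes was not tested.

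**Figure D4:**
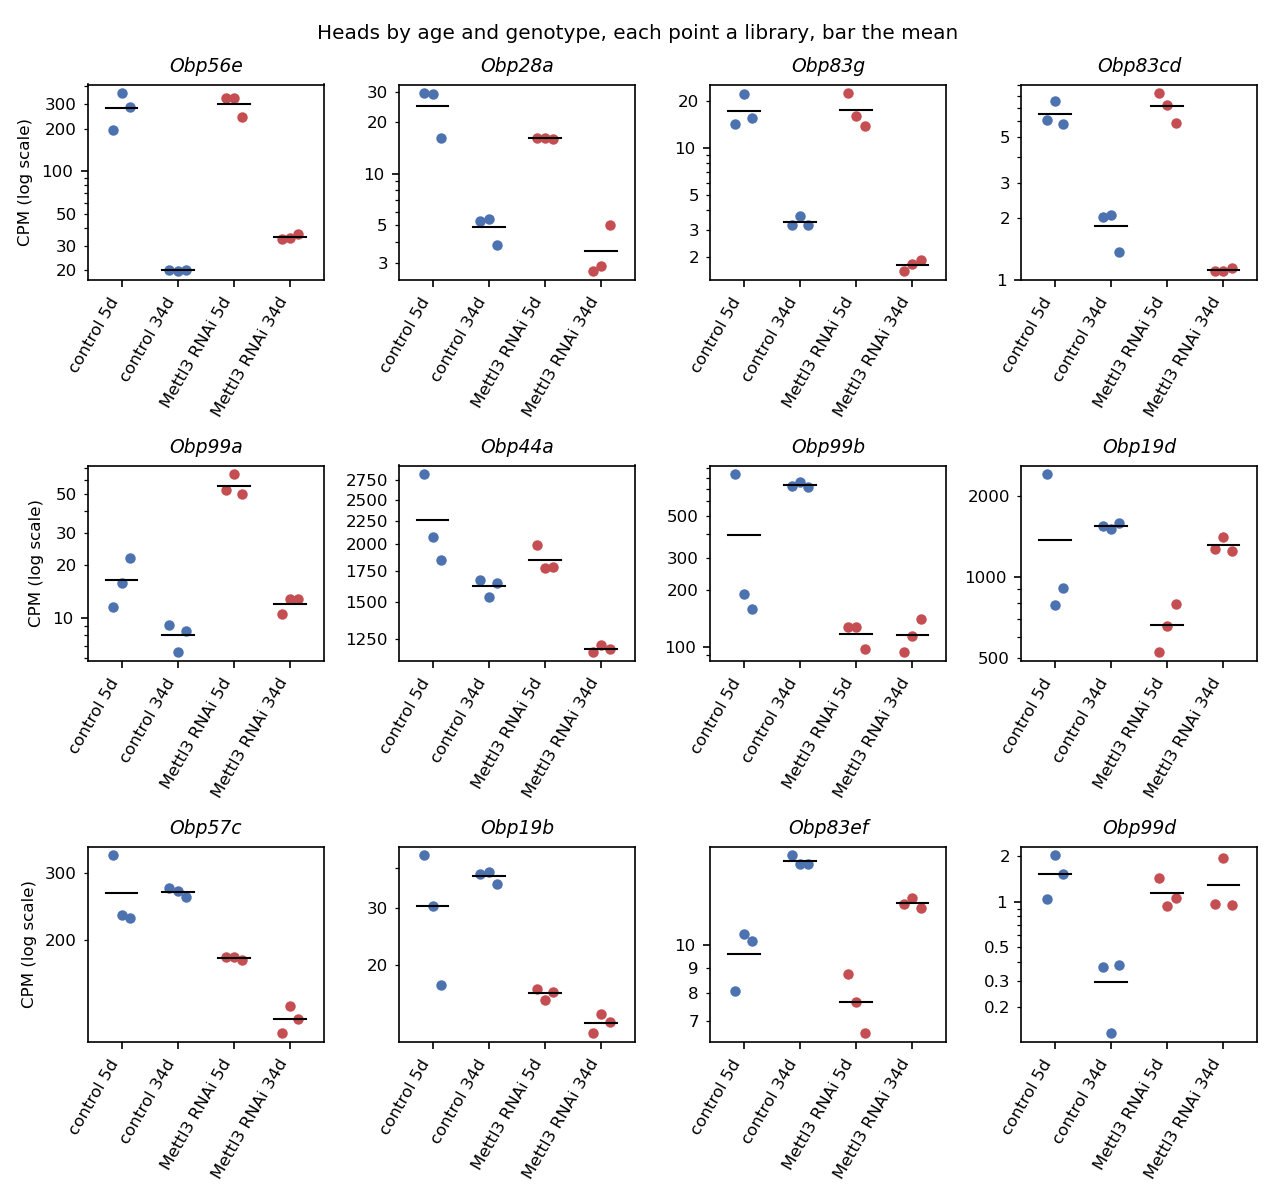
CPM of 12 members in heads of control (blue) and Mettl3 RNAi (red) flies at 5 and 34 days on a log scale with its own range in each panel, each point a library and each bar a group mean. Obp56e, Obp28a, Obp83g and Obp83cd are low at 34 days in both genotypes, and Obp99b is low in both ages of Mettl3 RNAi heads.

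In Mettl3 RNAi heads, too, more members fell with age than rose. Of 29 members tested 4 were higher and 17 lower at 34 days (edgeR), where 71.8% of all genes were called, 34.6% higher and 37.1% lower. The median was −0.38 over the members and −0.02 over all genes. Obp56e fell from 330, 331 and 242 CPM to 33.4, 33.6 and 36.3 CPM (8.84-fold), Obp83g from 22.5, 16.2 and 13.9 CPM to 1.62, 1.79 and 1.91 CPM (9.93-fold) and Obp83cd from 8.21, 7.24 and 5.86 CPM to 1.10, 1.10 and 1.15 CPM (6.41-fold). At under 2 CPM Obp56f fell 11.3-fold, from 0.999, 1.25 and 0.749 CPM to 0.0344, 0.0944 and 0.128 CPM. These 4 members had no overlap between the ages. Obp99a fell from 52.7, 64.4 and 49.9 CPM to 10.5, 12.9 and 12.8 CPM (4.67-fold, adjusted p = 4.22e-07), from a higher starting level than in controls.

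The 4 members that rose were Obp19d, from 527, 661 and 798 CPM to 1273, 1408 and 1246 CPM (1.95-fold), Obp56a, from 15.1, 16.6 and 15.7 CPM to 26.1, 28.4 and 29.9 CPM (1.76-fold), Obp83ef (1.57-fold) and Obp56h (1.28-fold). Obp99b did not move with age in these flies, at 127, 127 and 97.5 CPM and then 93.4, 114.5 and 141 CPM (log2 −0.03, SE 0.18, adjusted p = 0.89). Of the 21 calls only that of Obp56h was lost when a single library was left out.

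The test of the difference itself, the change with age in Mettl3 RNAi heads minus that in control heads, called 1 of 31 members, where 2.03% of all genes were called, 1.36% higher and 0.664% lower. This was Obp99d, whose change was higher by 2.63 on the log2 scale (SE 0.56, adjusted p = 0.036): it fell in controls and was at 1.44, 0.941 and 1.06 CPM at 5 days and 0.964, 1.95 and 0.957 CPM at 34 days in Mettl3 RNAi heads. The call did not hold when single libraries other than replicates 1 and 3 of the 5-day controls and replicate 3 of the 34-day knockdown were left out. Without the first 5-day control library 2 members, Obp99d (2.81) and Obp56e (0.94), were higher and 9 lower, among them Obp99b (−2.0), Obp56g (−1.04) and Obp99a (−0.91), with 10.5% of all genes called. With all libraries the value for Obp99b was −0.73 with an SE of 0.80 (adjusted p = 0.76).

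At 34 days Mettl3 RNAi and control heads differed in most members. Of 30 tested 5 were higher and 19 lower in Mettl3 RNAi heads (edgeR), where 40.8% of all genes were called, 21.7% higher and 19.1% lower. The median was −0.38 over the members and −0.01 over all genes. The 34-day controls are the ones that entered the age comparison, so these results share libraries. Of 13 olfactory pathway genes 0 were higher and 7 lower.

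Obp99b was at 721, 756 and 715 CPM in controls and 93.4, 114.5 and 141 CPM with Mettl3 RNAi (6.14-fold lower, log2 −2.62, SE 0.17, adjusted p = 0.000283). Obp47a, at 0.885, 0.402 and 0.615 CPM against 0.172, 0.157 and 0 CPM, was 5.59-fold lower and under 1 CPM in all 6 libraries. Obp19b, at 38.5, 39.0 and 35.8 CPM against 12.2, 14.0 and 13.2 CPM, was 2.80-fold lower (adjusted p = 2.78e-11). Obp57c, at 273, 269 and 258 CPM against 113, 134 and 124 CPM, was 2.10-fold lower (adjusted p = 3.57e-10), and Obp56g, at 136, 133 and 128 CPM against 65.5, 70.8 and 60.8 CPM, was 1.97-fold lower. The libraries of the 2 genotypes did not overlap for any of these 5 genes.

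On the higher side stood Obp99d (4.37-fold), Obp83b (2.23-fold), Obp83a (1.76-fold), Obp56e (1.76-fold, 20.3, 19.7 and 20.0 CPM against 33.4, 33.6 and 36.3 CPM) and Obp99a (1.54-fold, 9.17, 6.43 and 8.44 CPM against 10.5, 12.9 and 12.8 CPM). The antennal pair was low throughout, with Obp83a at 1.77, 2.11 and 1.64 CPM in controls and 3.31, 3.52 and 2.62 CPM with Mettl3 RNAi. Only the call of Obp83cd among the 24 was lost when a single library was left out. Fat body markers summed to 7665 to 8876 CPM in these controls and 8765 to 10307 CPM with Mettl3 RNAi. Of the 4 markers apolpp was called higher, while Lsp2 went from 891, 878 and 925 CPM in controls to 422, 554 and 677 CPM with Mettl3 RNAi and was not called (adjusted p = 0.054), and the part of fat body in the change of Obp99b was not tested.

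At 5 days the genotypes were hardly told apart. Of 29 members tested 1 was higher and 0 were lower (edgeR), where 0.173% of all genes were called, 0.134% higher and 0.0384% lower. Obp99a rose 3.27-fold, from 11.6, 15.9 and 21.8 CPM in controls to 52.7, 64.4 and 49.9 CPM with Mettl3 RNAi (log2 1.71, SE 0.20, adjusted p = 0.0374), with every knockdown library above every control, though the call was lost when any 1 library other than the first control was left out. At an unadjusted p under 0.05 there were 10 members. Obp99b, at 835, 192 and 159 CPM against 127, 127 and 97.5 CPM, was not called (log2 −1.87, SE 0.66, adjusted p = 0.39), and without the first control library it was at −0.61 on the log2 scale (adjusted p = 0.13).

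The m6A immunoprecipitates of the same heads gave a ratio of immunoprecipitate to input CPM for each member. At 5 days 3 members had a higher and 1 a lower ratio with Mettl3 RNAi (edgeR, 30 tested), where 19% of all genes were called, 5.03% higher and 14% lower. The lower one was Obp57b, with log2 ratios of −0.45, −0.52 and −1.06 in controls and −1.76, −1.16 and −2.10 with Mettl3 RNAi (log2 difference −0.91, SE 0.19, adjusted p = 0.0012). The log2 ratio of Obp57b was below 0 in each of these libraries, that is, immunoprecipitates held less of it than inputs. The calls of the 3 higher ones, Obp19a, Obp19b and Obp83g, were each lost when single libraries were left out.

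At 34 days 7 of 31 members had a higher ratio with Mettl3 RNAi and 0 a lower one, where 32.3% of all genes were called, 12.6% higher and 19.7% lower. The share of members called was below that of all genes at either age. The median log2 difference over the members was 0.29 at 34 days and 0.07 at 5 days, and over all genes 0.09 and 0.06. The members were Obp83cd (log2 difference 1.5), Obp57c (0.58), Obp99b (0.56), Obp56a (0.54), Obp56d (0.49), Obp19d (0.44) and Obp99c (0.42). For Obp19d, the member with the highest ratios among them, the log2 ratios were 1.00, 0.81 and 1.13 in controls and 1.87, 1.35 and 1.60 with Mettl3 RNAi. Its libraries did not overlap between the genotypes, whereas the calls of Obp83cd and Obp99c were lost when single libraries were left out.

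Aβ42 in neurons went with lower levels of most abundant members in heads. Of 27 members tested 4 were higher and 13 lower in AB(2x) heads than in mcd8GFP heads (edgeR, 2 against 3 libraries), where 36% of all genes were called, 18.5% higher and 17.5% lower. The median was −0.34 over the members and 0.01 over all genes. Of 11 olfactory pathway genes 1 was higher and 3 lower.

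Obp99b was at 597, 665 and 826 CPM in mcd8GFP heads and 258 and 214 CPM in AB(2x) heads (3.03-fold lower, log2 −1.60, SE 0.16, adjusted p = 0.000881). Obp56e was at 69.2, 66.3 and 78.4 CPM against 26.0 and 22.8 CPM (3.0-fold lower, adjusted p = 2.5e-08), and Obp83cd at 3.70, 2.79 and 2.54 CPM against 1.31 and 0.802 CPM (2.92-fold lower). Obp19c was 2.08-fold lower, at 9.41, 8.55 and 8.47 CPM against 4.85 and 3.86 CPM. In all 4 genes both AB(2x) libraries lay below the 3 mcd8GFP libraries.

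The members that were higher were Obp83ef, at 6.23, 6.57 and 7.63 CPM against 11.7 and 20.4 CPM (2.30-fold), Obp56h, at 13.3, 10.6 and 14.3 CPM against 26.0 and 28.4 CPM (2.08-fold, adjusted p = 1.8e-05), Obp49a, at 150, 129 and 157 CPM against 212 and 217 CPM (1.44-fold), and Obp56d, at 204, 212 and 211 CPM against 263 and 264 CPM (1.23-fold). Obp99a had 4 reads in the AB(2x) heads and 134 in the mcd8GFP heads, a pooled ratio of 21.3 (95% counting interval 8.12 to 79.2), but its mcd8GFP libraries spread from 0.449 to 5.11 CPM and it was not called (adjusted p = 0.24). The calls of Obp56a, Obp57b, Obp83ef and Obp99b were each lost when 1 library was left out, that of Obp99b without the second AB(2x) library (highest adjusted p 0.078). Fat body markers summed to 10052 to 10373 CPM in mcd8GFP heads and 6429 to 7666 CPM in AB(2x) heads, in the direction of Obp99b, and their part in it was not tested.

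In brains of the same genotypes 15 members passed the filter, 0 were higher and 5 lower with Aβ42 (edgeR), where 31% of all genes were called, 16% higher and 15% lower. The median was −0.52 over the members and 0.02 over all genes. Obp99b was at 310, 270 and 393 CPM in mcd8GFP brains and 90.1, 22.3 and 74.8 CPM in AB(2x) brains (5.39-fold lower, log2 −2.43, SE 0.60, adjusted p = 0.0437). Obp83cd was 5.20-fold, Obp19c 1.97-fold, Obp99c 1.29-fold (359, 329 and 350 CPM against 249, 286 and 294 CPM) and Obp18a 1.23-fold lower, and in each of the 5 the 2 genotypes did not overlap.

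None of the 5 calls in brains held when every library was left out in turn. Without the second mcd8GFP brain library, the highest in Obp83a, Obp18a, Obp83cd and Obp99c were called, and without the 2 brain libraries highest in Obp83a Obp18a (log2 −0.34), Obp69a (−1.42), Obp83cd (−2.52) and Obp99c (−0.45) were lower and Obp99b was at −2.70 (adjusted p = 0.23). Fat body markers summed to 6605 to 8336 CPM in mcd8GFP brains and 3652 to 5037 CPM in AB(2x) brains, but the markers did not move together. In mcd8GFP against AB(2x) brains apolpp was at 5255, 4373 and 5026 against 2119, 1788 and 2308 CPM. FASN1 was at 1593, 1337 and 1355 against 1248, 1822 and 2511 CPM. Lsp2 was at 1487, 895 and 1178 against 1669, 41.8 and 55.8 CPM, and Fbp1 was at most 0.576 CPM. Here too their part was not tested. Obp83ef, at 1.95, 1.54 and 1.87 CPM against 1.83, 8.86 and 5.67 CPM, missed the threshold (log2 1.56, SE 0.55, adjusted p = 0.083).

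Among sorted brain cells Obp44a and Obp18a marked the glial sort. Glial markers summed to 3718 to 10947 CPM in repoGFP+, 134 to 753 in repoGFP− and 2192 to 9006 in elavGFP+ cells. Neuron markers summed to 2476 to 3860, 3749 to 5046 and 3328 to 4715 CPM in the same order. Low levels of a member in a sort can therefore not be assigned to 1 cell type. At 5 days, of 9 members tested between repoGFP+ and repoGFP− cells of control flies, 3 were higher and 1 lower in repoGFP+ cells (edgeR), where 18.1% of all genes were called, 13.3% higher and 4.77% lower. Obp44a was at 692, 807 and 498 CPM in repoGFP+ cells and 2.88, 2.62 and 4.67 CPM in repoGFP− cells (222-fold, log2 7.79, SE 0.33, adjusted p = 1.99e-05). Obp18a was at 119, 281 and 55.3 CPM against 1.64, 0.414 and 0.230 CPM (218-fold, adjusted p = 0.00154), and Obp99a at 4.30, 8.15 and 15.6 CPM against 0.328, 0.414 and 0.306 CPM (29.6-fold). The sorts did not overlap for any of the 3. Obp18a and Obp99a, low in repoGFP− cells, passed the low-count filter through repoGFP+ cells alone, so they could only be called higher there.

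Obp56h went the other way, at 0 in all 3 repoGFP+ libraries and at 10.6, 31.5 and 31.2 CPM in repoGFP− cells, at least 112-fold higher there against a floor of 3 counts in a library. The repoGFP− libraries of the other groups did not show it, with 0, 2.06 and 0 CPM in controls at 34 days and 0, 0.132 and 0.361 CPM in Mettl3 RNAi flies at 5 days. Its level was thus high in 1 group of repoGFP− cells and near 0 in the others. Obp56h passed the low-count filter through repoGFP− cells alone, so its direction at 5 days was fixed by the filter.

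At 34 days 3 of 8 members were higher in repoGFP+ cells and 0 lower, where 6.69% of all genes were called, 5.46% higher and 1.23% lower. Obp44a was at 381, 250 and 296 CPM against 2.41, 3.01 and 2.44 CPM (120-fold, adjusted p = 8.1e-05), and Obp18a at 72.9, 98.3 and 53.7 CPM against 0.178, 0.0793 and 0 CPM, a ratio of pooled counts of 879 (95% counting interval 301 to 4266). Both held with any 1 library left out, at either age. The call of Obp99a (1.38, 3.54 and 3.95 CPM against 0, 0.0793 and 0 CPM) did not. Obp18a and Obp99a again passed the filter through repoGFP+ cells alone, so their direction was fixed by it and their calls add nothing to the count against all genes.

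**Figure D5:**
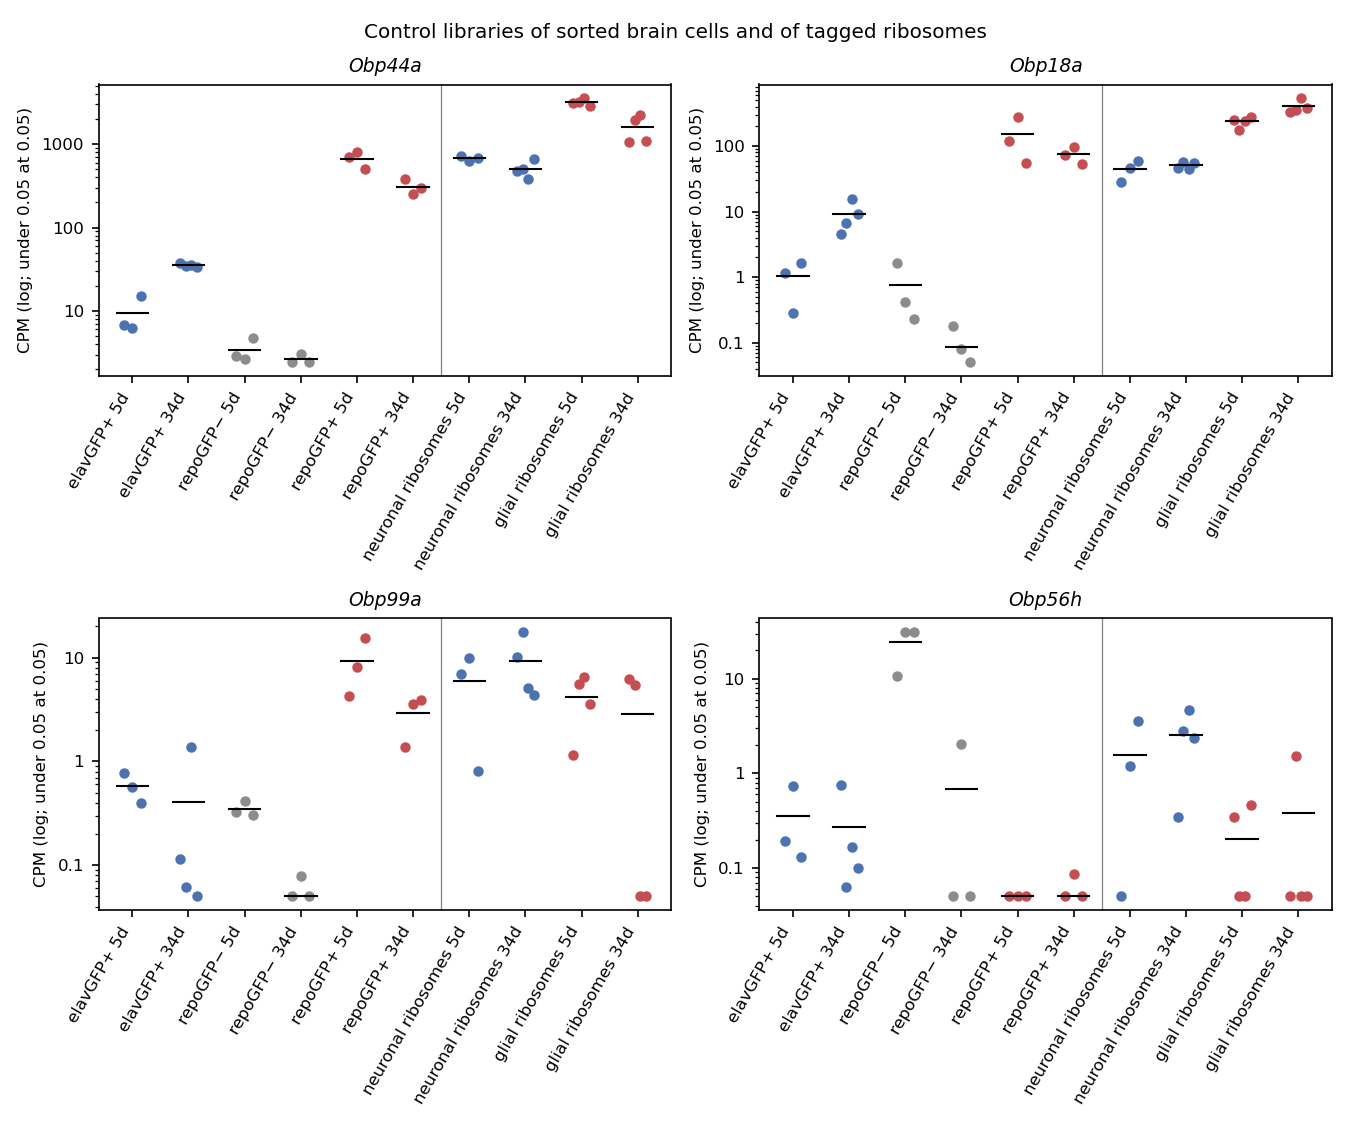
CPM of Obp44a, Obp18a, Obp99a and Obp56h in sorted control cells (left of the line) and in ribosomes pulled down from neurons or glia of control flies (right of it), on a log scale with values under 0.05 drawn at 0.05. Obp44a and Obp18a are high in repoGFP+ cells and glial ribosomes at both ages, and Obp56h is high in 5-day repoGFP− cells.

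Tagged ribosomes gave the same order for the leading pair with smaller differences. The glial and neuronal pull-downs came from different driver lines, so cell class and driver line cannot be told apart. In the 5-day control inputs, rescaled as described below, Obp44a was at 189 to 323 CPM with the repo driver and 1042 to 1479 CPM with the elav driver. Obp18a was at 37.0 to 57.5 and 57.7 to 105 CPM there. At 5 days 2 of 20 members were higher and 2 lower in glial than in neuronal ribosomes of control flies (edgeR), where 33% of all genes were called, 16.7% higher and 16.3% lower. Obp44a was at 3145, 3191, 3605 and 2894 CPM in glial ribosomes and 724, 635 and 678 CPM in neuronal ribosomes (3.79-fold, adjusted p = 0.000114), and Obp18a at 253, 179, 246 and 280 CPM against 28.1, 46.9 and 58.9 CPM (4.55-fold, adjusted p = 8.45e-05). Obp99c was 2.29-fold lower in glial ribosomes, at 147, 220, 183 and 175 CPM against 350, 354 and 303 CPM, and Obp56d 4.57-fold lower, a call that was lost when single libraries were left out.

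At 34 days 2 of 15 members were higher and 0 lower, where 20.2% of all genes were called. They were again Obp18a, at 331, 353, 548 and 381 CPM against 45.9, 57.9, 44.2 and 56.1 CPM (9.27-fold, adjusted p = 1.01e-06), and Obp44a, at 1053, 1970, 2246 and 1094 CPM against 474, 505, 381 and 666 CPM (3.62-fold). Glial and neuronal libraries did not overlap for either gene. In the 34-day control inputs, rescaled as described below, Obp44a was at 220 to 315 CPM with the repo driver and 479 to 814 CPM with the elav driver. Obp18a overlapped there, at 82.6 to 86.9 and 66.1 to 95.9 CPM. Neuronal ribosomes carried these genes at far higher levels than elavGFP+ cells did, in libraries made by another procedure, and the 2 were not tested against each other.

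In elavGFP+ cells the same pair rose with age. Of 10 members tested in controls 2 were higher and 0 lower at 34 days (edgeR), where 4.35% of all genes were called, 1.71% higher and 2.65% lower. Obp44a rose 3.40-fold, from 6.18, 6.73 and 15.2 CPM to 37.1, 35.9, 33.7 and 34.3 CPM (adjusted p = 0.0175), and Obp18a 7.90-fold, from 0.286, 1.16 and 1.65 CPM to 4.63, 15.7, 9.30 and 6.67 CPM (adjusted p = 0.0433). Old and young libraries did not overlap, yet both calls were lost on leaving out single libraries, with highest adjusted p values of 0.096 and 0.15.

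In Mettl3 RNAi neurons 3 of 11 members were higher at 34 days and 0 lower, where 3.83% of all genes were called. Obp44a rose from 5.19, 13.7 and 17.0 CPM to 107, 94.0, 64.6 and 50.5 CPM (5.86-fold, adjusted p = 0.0145), Obp18a 5.97-fold, and Obp99c from 13.9, 20.1 and 13.8 CPM to 44.5, 46.4, 29.7 and 54.4 CPM (2.41-fold, adjusted p = 0.0451). The 3 calls were each lost when single libraries were left out. Glial markers summed to 4403 to 6336 CPM in control elavGFP+ cells at 5 days and 2245 to 3081 CPM at 34 days, and of the 6 markers tested 0 were called higher and 1 lower. The lower one, Eaat1, carried most of the sum, at 4139 to 5801 CPM at 5 days and 1661 to 2137 CPM at 34 days. Gs2 was at 229 to 802 and then 519 to 1146 CPM, and alrm at 23.6 to 67.2 and then 32.1 to 150 CPM, neither called (adjusted p = 0.54 and 0.40), and the part of glial RNA in the changes of Obp44a and Obp18a was not tested.

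Other contrasts among sorted cells gave no calls for the members. Between Mettl3 RNAi and control elavGFP+ cells at 34 days 0 of 9 were called (edgeR, 0.0366% of all genes called, 3 members at an unadjusted p under 0.05), and DESeq2 called 2 higher. Between 34 and 5 days in repoGFP+ cells 0 of 10 were called in controls (0.12% of all genes, 0.0109% higher and 0.109% lower, 2 members at an unadjusted p under 0.05, DESeq2 1 lower) and 0 of 10 with Mettl3 RNAi (0% of all genes, 1 at an unadjusted p under 0.05, DESeq2 1 higher). Between genotypes in repoGFP+ cells at 34 days 0 of 11 were called (0% of all genes, 1 at an unadjusted p under 0.05, DESeq2 1 higher). Obp44a fell in level from 692, 807 and 498 CPM to 381, 250 and 296 CPM in control glia without overlap of the ages, which missed the threshold (log2 −1.25, SE 0.22, adjusted p = 0.063).

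Whole brain lysates of the TRAP experiment showed members rising with age. For these libraries values are CPM rescaled by the trimmed mean of M values (TMM), because the mitochondrial transcript mt:lrRNA took 47.4% of reads on average in 5-day and 17.9% in 34-day inputs with the elav driver, and 29.5% and 16.3% with the repo driver. In elav-driver controls 4 of 19 members were higher and 1 lower at 34 days (edgeR), where 12.9% of all genes were called, 5.61% higher and 7.28% lower. In repo-driver controls 5 of 19 were higher and 0 lower, where 25.3% of all genes were called, 12.2% higher and 13.1% lower.

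Obp99b rose in both. With the elav driver it went from 62.5, 30.2, 37.4 and 29.1 to 99.6, 124, 181 and 129 scaled CPM (3.41-fold, log2 1.77, SE 0.25, adjusted p = 0.000819), and with the repo driver from 106, 145, 156 and 135 to 418, 206, 479 and 559 scaled CPM (3.08-fold, log2 1.62, SE 0.28, adjusted p = 0.0041). Every 34-day library was above every 5-day library in either driver line. Obp99c also rose in both, 1.67-fold and 1.56-fold, a call that with the elav driver was lost without the second 5-day or the first 34-day library.

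The other calls were each made in 1 driver line. With the elav driver Obp19d rose 2.72-fold, from 82.7, 36.6, 34.4 and 47.9 to 123, 97.8, 203 and 112 scaled CPM, Obp56d rose 2.20-fold (lost when single libraries were left out) and Obp44a fell 2.02-fold, from 1364, 1061, 1042 and 1479 to 586, 544, 479 and 814 scaled CPM (adjusted p = 0.00347). With the repo driver Obp18a rose 1.74-fold, from 45.6, 37.0, 57.5 and 55.7 to 82.6, 86.3, 86.9 and 83.8 scaled CPM, Obp57c 4.76-fold, from 0.893, 1.29, 0.542 and 0.599 to 3.83, 2.64, 3.13 and 6.39 scaled CPM, and Obp83ef 3.24-fold, a call lost without the first 34-day library. The difference between driver lines was not tested. Without TMM scaling, which shifted the median gene by 0.83 on the log2 scale with the elav driver and 0.27 with the repo driver, 9 members were higher and 0 lower in elav-driver brains, and Obp44a was at −0.12 (adjusted p = 0.70).

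Knockdown of Mettl3 in 1 cell class changed few members of the whole brain at 34 days. With neuronal knockdown 0 of 21 members were called (edgeR, 0.43% of all genes, 2 members at an unadjusted p under 0.05, DESeq2 1 higher). With glial knockdown 1 of 18 was called, where 0.877% of all genes were called. This was Obp44a, lower at 174, 159, 175 and 207 than in controls at 256, 300.5, 315 and 220 scaled CPM (1.52-fold, log2 −0.61, SE 0.13, adjusted p = 0.0464). The libraries did not overlap, but the call was lost on leaving out any 1 of 6 of the 8 libraries.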

How the data were processed

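Gene counts were used as deposited in 1 table of 140 libraries, 1 column per library, with no column left unused. Per the submitters' processing notes and the study's methods, the authors trimmed reads with Trim Galore, aligned them with STAR 2.7.3a to dm6 and counted reads per gene into these raw counts. The strandedness of the counting is not given in the sources used here. Members and gene lists were chosen with earlier results of these data known. Counts were analysed with edgeR 4.0.16 in R 4.3.3 (low-count filter filterByExpr, TMM scaling, quasi-likelihood test, 1 fit per comparison over the groups compared, Benjamini-Hochberg adjustment over all genes that passed, threshold 0.05). A log2 fold change is the first named group minus the second, with its SE. The change of the m6A ratio was an interaction in 1 fit of immunoprecipitates and inputs with each sample as a block. DESeq2 1.42.0 was an alternative, and the fits were tested on simulated data with known changes.

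CPM used reads on genes. Fold intervals for groups with few reads and floors of 3 counts cover counting error only. Values per library are given for members at 10 CPM or more or with an adjusted p under 0.05, at most the 4 highest and 4 lowest changes per comparison where many passed. Gene positions and overlaps came from the Ensembl annotation of the same assembly, in which all 51 members were found. Nothing in the labels says that replicates came from separate crosses, so p-values measure the spread between these samples. Replicate numbers did not pair the samples (r of same-numbered deviations −0.35 to 0.18 over 21 comparisons). Alternatives were other scaling and filters, DESeq2, a replicate block, leaving out each library and, chosen after seeing the data, leaving out the 2 brain libraries highest in Obp83a and no scaling beyond read totals. The authors' m6A and TRAP immunoprecipitates entered only where stated, and sequences were not used here.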

Additional observations from a re-analysis of the deposited data

Results flagged for a closer look

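Within groups of 4 libraries, 97 sets of values of members at 10 CPM or more were examined for 1 library far from the rest, and 10 were found, where chance gives about 1 in 20. All 10 were TRAP libraries. In elav-driver control inputs at 34 days the third library was lowest for Obp18a at 78.5 CPM, with the next at 104.7, and highest for Obp56d at 97.8 CPM, with the next at 44.9. In repo-driver control inputs at 34 days the fourth library was highest for Obp19d at 361.6 CPM (next 114.4), Obp83a at 52.4 CPM (next 4.83) and Obp83b at 65.3 CPM (next 3.06), so that 3 members known from the antenna were high together in it.

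In neuronal ribosomes of 34-day Mettl3 RNAi flies the fourth library was highest for Obp18a at 93.7 CPM (next 53.9) and the first for Obp99a at 21.7 CPM (next 7.77). In glial ribosomes of 34-day controls the second library was highest for Obp99b at 123.9 CPM (next 35.2). In repo-driver Mettl3 RNAi inputs the fourth 5-day library was lowest for Obp99c at 390.2 CPM (next 552.5), and the first 34-day library was highest for Obp56d at 93.7 CPM (next 49.3).

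The change of Obp99d with age differed between genotypes in heads, by 2.63 on the log2 scale (edgeR interaction test, adjusted p = 0.036), with 0.371, 0.134 and 0.381 CPM in 34-day controls below the 9 other libraries of the 4 groups.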

How the results depend on the processing

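Directions of called members were kept throughout: over 142 calls of 30 members, 1549 refits kept the call, 193 lost it and none reversed it. Replicate numbers did not pair the samples. With a replicate block the count of members higher was 0 for Mettl3 RNAi at 5 days and for age by genotype in heads (1 without it), 7 for Aβ42 in heads (4), 0 for age in control elavGFP+ cells (2), 1 in Mettl3 RNAi elavGFP+ cells (3) and 1 for glial knockdown in brain (0), and members lower were 3 for Aβ42 in brains (5). The m6A ratio at 5 days gave 0 higher and 0 lower with no replicate block (3 and 1).

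DESeq2 gave 1 lower for Mettl3 RNAi at 5 days, 2 higher and 2 lower for age by genotype, 1 higher for Aβ42 in brains, 2 lower for heads against brains, and, where edgeR called 0, 2 higher for Mettl3 RNAi in elavGFP+ cells (1 with all groups in 1 fit), 1 lower and 1 higher for age in control and Mettl3 RNAi glia, and 1 higher for Mettl3 RNAi in glia, in brains with neuronal and in brains with glial knockdown. With a mean count of at least 50, members higher were 0 for Mettl3 RNAi at 5 days, 3 at 34 days, 0 for age by genotype and 3 for age in repo-driver brains, and members lower were 3 for Aβ42 in brains and 1 for glial against neuronal ribosomes at 5 days. With no filter on low counts, 3 were lower for Aβ42 in brains, 1 higher for age in Mettl3 RNAi neurons and 1 lower for age in control glia. With no scaling beyond read totals, 2 were higher for age in control heads, 0 for the m6A ratio at 5 days and 12 at 34 days, 9 higher and 0 lower for age in elav-driver brains and 0 lower for glial knockdown. With replicates 1 to 3 alone, 1 was higher for age in elav-driver brains, 1 for glial knockdown, and 1 lower for ribosomes at 5 days.

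Leaving out 1 library at a time, members higher ranged from 1 to 8 and members lower from 8 to 12 for age in control heads, 0 to 1 each for Mettl3 RNAi at 5 days, 0 to 2 and 0 to 9 for age by genotype, and 0 to 2 and 1 to 2 for the m6A ratio at 5 days. They ranged from 0 to 1 and 1 to 5 for Aβ42 in brains, 0 to 3 (lower) for heads against brains, 0 to 2 (higher) for age in control and in Mettl3 RNAi neurons, 0 to 1 (higher) for neuronal knockdown, 0 to 2 and 0 to 1 for glial knockdown, and 1 to 2 (lower) for ribosomes at 5 days.

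Members at 1 CPM in every library of at least 1 group numbered 11 in brains, 8 in repoGFP+ and 6 in repoGFP− cells, 14 in neuronal and 13 in glial ribosomes. In the mean of every group they numbered 6 in elavGFP+, 8 in repoGFP+ and 5 in repoGFP− cells, 14 in TRAP inputs, 17 in neuronal and 11 in glial ribosomes. At 0.5 CPM 21 reached elavGFP+ cells, and at 2 CPM 6 reached repoGFP− cells. With TMM-scaled CPM Obp18a no longer reached repoGFP− cells, and so not all 8 tissues. Obp56f dropped out of heads, Obp93a out of TRAP inputs and Obp84a out of glial ribosomes, while Obp56d was added in elavGFP+ cells. Without scaling the share of higher among all calls went from 45.7% to 58.3% for age in control heads, 77.8% to 65.5% for Mettl3 RNAi at 5 days, 51.7% to 62.3% for Aβ42 in brains, 39.2% to 65.8% and 46.2% to 73.0% for age in control and Mettl3 RNAi neurons, 73.6% to 54.6% for glia against other cells at 5 days, 43.5% to 97.8% and 48.3% to 81.6% for age in elav-driver and repo-driver brains, 73.8% to 90.5% and 67.1% to 48.7% for neuronal and glial knockdown in brains, and 50.5% to 70.1% and 61.0% to 38.9% for ribosomes at 5 and 34 days. The median gene was shifted by over 0.1 on the log2 scale in 10 of the 21 comparisons, by 0.83 at most.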
